A study of Mus musculus with 24 samples.

Results

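Wild-type mouse microglia stimulated with fibronectin were compared with untreated wild-type microglia by RNA sequencing, in 6 of the 24 libraries of a larger series. Both groups were primary microglia of C57BL/6 mice of age p0, held for 3 h without stimulus or with mouse fibronectin at 100 µg/ml. Each group held 3 libraries, numbered 1 to 3 in the labels, and the series describes them as separate cell preparations. These 6 libraries were chosen by genotype and treatment alone, so no measured value entered the choice of libraries. For comparison the wild-type libraries with Re-LPS, a lipopolysaccharide of short carbohydrate chain, at 10 or 0.1 ng/ml for 3 h were used, and so were the untreated and fibronectin-treated libraries of CD14-deficient mice (B6.129S4-Cd14tm1Frm/J, written KO here), again with 3 libraries a group.

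Fibronectin is a large glycoprotein of plasma and extracellular matrix. Cells bind it through integrins and syndecans, and it has also been described as a ligand of the Toll-like receptor TLR4, the receptor that senses bacterial lipopolysaccharide together with MD-2 (gene Ly96) and the co-receptor CD14. TLR4 signals through the adaptor MyD88 to NF-kB, which drives cytokine and chemokine genes, and through the adaptor TRIF to IRF3, which drives interferon beta. Secreted interferon beta then acts on the cells through JAK and STAT proteins and raises a large set of interferon-stimulated genes. Microglia are the resident macrophages of the brain, and in the healthy brain they are known by receptors such as CX3CR1, P2RY12 and CSF1R.

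Levels are given as CPM, the count of a gene relative to the size of its library after correction with TMM (trimmed mean of M-values) factors, always in the order of replicates 1, 2 and 3. Changes are log2 fold changes of fibronectin over untreated ± standard error, and a gene is called at an adjusted p under 0.05 (edgeR quasi-likelihood test, Benjamini-Hochberg adjustment over all 13294 genes tested). Total counts ran from 17760269 to 22143774 with fibronectin and from 15647116 to 16879244 in the untreated libraries. TMM factors were 0.648 to 0.773 with fibronectin and 1.18 to 1.30 untreated, and dividing by plain library totals in their place moved the median log2 change of all tested genes from 0.01 to -0.78. The first principal component of the 6 libraries held 74.3% of the variance and separated the treatments. The second held 19.2% and set replicate 1 of both groups (52.2 and 52.8) apart from the others (-31.8 to -21.2).

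Replicate 1 stood apart in the same genes in both groups. In 222 genes with at least 5 CPM in both replicate 1 libraries it lay more than 4 times above the mean of replicates 2 and 3 with and without fibronectin. Of these genes 2 were called, against 50.2% of all genes tested. A gap of this size within both groups widens the spread in a fit without a replicate block. The low count therefore does not show that these genes did not respond. It lay more than 4 times below that mean in both groups in 13 genes with at least 5 CPM in each of the other 4 libraries. Gapdh, a glycolytic enzyme often used as a reference, was at 61.6, 2.11 and 1.28 CPM with fibronectin and 45.7, 1.8 and 0.592 CPM untreated. It has many near-identical pseudogene copies between which counting may split reads, so its level is uncertain. The reference genes Hprt, Sdha and Tbp showed no such gap. What set replicate 1 apart was not tested. Counts without both replicate 1 libraries stand beside the results that change by more than 1.5 times.

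The labelled cell type was checked against marker genes. All 10 defining microglial and macrophage markers were detected, with Csf1r at 2511, 1948 and 1905 CPM with fibronectin and 3179, 2585 and 2555 CPM untreated and the microglial complement gene C1qa at 1445, 1474 and 1312 CPM with fibronectin and 1187, 1221 and 821 CPM untreated. Their summed level ran from 10412 to 11413 CPM with fibronectin and from 10227 to 11319 CPM untreated, ranges that overlap. That overlap holds on the TMM scale only. As a share of all counts these markers took 0.719 to 0.843% with fibronectin and 1.28 to 1.34% untreated. Of these 10 genes 3 were called higher and 1 lower (7 and 2 with the replicate block described below, 5 and 1 by DESeq2, 1 and 1 without fibronectin replicate 3, and 1 and 5 over library totals). In summed CPM, which is not scaled for gene length, markers of other cells stood lower. The 9 tested astrocyte markers summed to 18.8 to 47.7 CPM against 16.3 to 36.0 CPM, the 11 oligodendrocyte-lineage markers to 255 to 469.5 CPM against 224 to 428 CPM, and the 10 neuronal markers to 17.6 to 58.4 CPM against 11.2 to 48.7 CPM. Of 16 markers of T cells, B cells, NK cells, neutrophils and mast cells 1 passed the filter on low counts (Cd4, 0.488, 1.02 and 0.471 CPM against 0.831, 1.66 and 1.04 CPM). The 4 tested vascular and fibroblast markers were the exception to overlapping ranges, with a sum of 11.5 to 33.9 CPM against 1.94 to 9.09 CPM, with fibronectin mostly Pdgfrb, a receptor of pericytes (17.5, 7.51 and 20.9 CPM against 0.416, 0.0947 and 0.197 CPM). The part of these RNAs in the results was not tested. In cultures sequenced in bulk, fewer cells of a type and less RNA per cell cannot be told apart.

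Fibronectin changed the RNA of these cells broadly. Of the 13294 genes tested 6670 were called (50.2%), 3153 higher (23.7%) and 3517 lower (26.5%). These shares of all genes tested are the background for every list and family count of the same fit below. The rises were larger than the falls: 561 genes rose by more than 3 on the log2 scale and 227 by more than 5, whereas 210 fell by more than 3 and 19 by more than 5. Genes that rose took 60.7 to 64.1% of all counts with fibronectin and 29.0 to 30.3% untreated, and the 561 largest rises alone went from 1.46 to 1.59% of the counts to 23.1 to 26.9%. Among the called genes 6544 had no overlap between the 3 libraries of each group. Over all 13294 genes tested, called or not, 3566 lay higher and 4212 lower without overlap. All 6670 were also called, in the same direction, when the replicate number was a block nested in genotype. That fit called 9573 of the 13294 genes, 4653 higher and 4920 lower. The balance of rises and falls depends on the scaling. With library totals in place of TMM 1490 genes were called higher and 7389 lower, and 375 genes called higher above were called lower there, while RLE scaling gave 3382 and 3285. Where a list or family is counted with the block or over library totals, the counts of that fit over all 13294 genes are its background. Without both replicate 1 libraries 5433 genes were called.

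**Figure D1:**
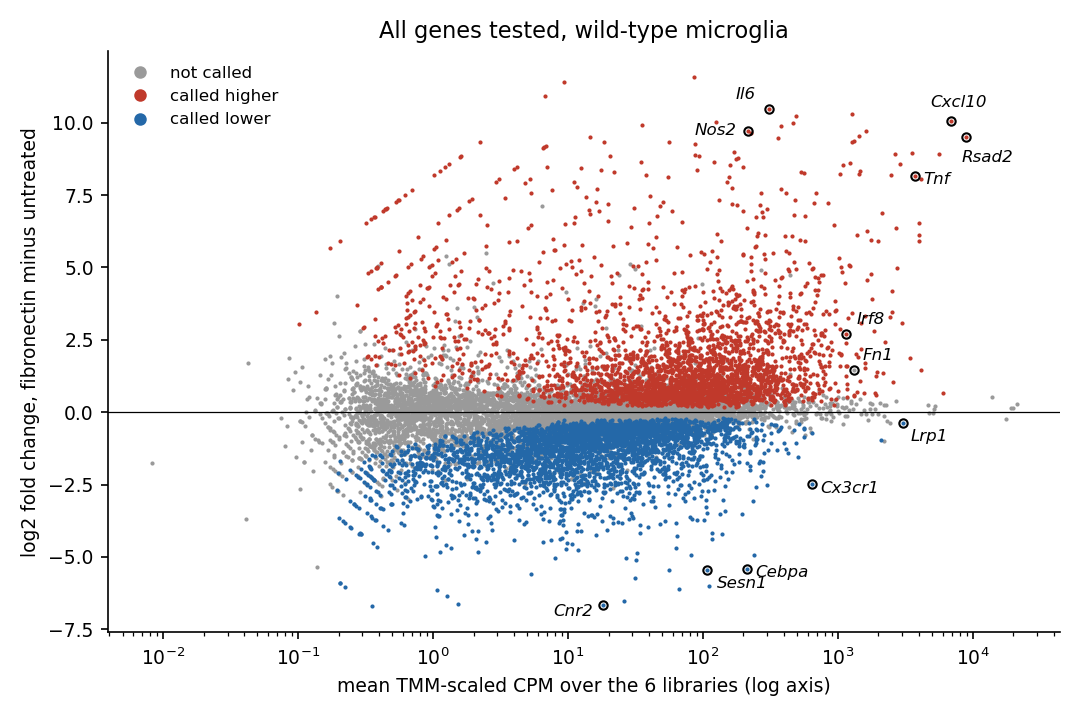
Each point is 1 of the 13294 genes tested; the horizontal axis is its mean TMM-scaled CPM over the 6 wild-type libraries (log axis) and the vertical axis its log2 fold change, fibronectin minus untreated. Red points were called higher, blue points lower and grey points not; genes such as Il6, Cxcl10 and Rsad2 rose by about 10 on the log2 scale, whereas few genes fell by more than 5. The streaks at low CPM are genes with a few counts in 1 group, whose fitted change depends on the prior count.

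Cytokine and chemokine genes had the highest medians of the 28 gene lists examined. Tnf, the tumour necrosis factor gene, was at 9134, 7198 and 6093 CPM with fibronectin and 38.9, 26.0 and 13.7 CPM untreated. Every fibronectin library was far above every untreated one (log2 fold change 8.16 ± 0.58, adjusted p = 2.0e-09). Il6, whose product drives fever and the acute phase response, stood at 669, 485 and 694 CPM with fibronectin and 0.364, 0.237 and 0.691 CPM untreated. It was close to absent without stimulus and rose by 10.46 ± 0.81 (adjusted p = 5.4e-09). Il12b, which encodes the p40 chain shared by IL-12 and IL-23, was at 3227, 2708 and 1667 CPM with fibronectin and 3.33, 1.42 and 1.33 CPM untreated and rose by 10.29 ± 0.82 (adjusted p = 7.9e-09). Replicate 3 was the lowest of the fibronectin libraries for both Tnf and Il12b. The interleukin-1 genes rose together, Il1a from 3.53, 3.93 and 4.0 CPM to 3187, 2642 and 2709 CPM (9.54 ± 0.71, adjusted p = 3.4e-09) and Il1b by 8.2 ± 0.56 (adjusted p = 1.3e-09); Il1b, like other genes so marked below, was picked after its values were seen.

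Of 31 tested cytokine genes 24 were called higher and 2 lower, with a median log2 change of 6.08 against 0.01 over all genes tested, and 6.01 when genes with 3 or fewer untreated counts were set at their counted ratio. Il27, an IL-12 family cytokine, rose by 9.88 ± 0.53 (884, 606 and 771 CPM against 0.935, 0.568 and 0.888 CPM) and Tnfsf15, a TNF family ligand, by 9.65 ± 1.53 (608, 625 and 139 CPM against 0.935, 0.521 and 0.247 CPM). Il10, the anti-inflammatory cytokine, was at 5.50, 5.47 and 3.90 CPM with fibronectin and 0.0520, 0.0473 and 0.0493 CPM untreated. It had 212 counts with fibronectin and 3 untreated, 99.8 times as many after scaling (95% counting interval 33.7 to 488). Il23a, the p19 chain of IL-23, had 0 counts in the untreated libraries together and 579 with fibronectin, which is at least 273-fold higher against a floor of 3 counts over the group. Csf2, which encodes GM-CSF, went from 1 count to 264 (ratio 373, 66.4 to 14788). Intervals and floors cover counting error only. Il16, a chemoattractant for CD4 cells, fell (1.53, 1.17 and 1.14 CPM against 17.6, 21.2 and 27.8 CPM; -4.11 ± 0.53, adjusted p = 3.0e-06), and so did Tnfsf12, the TWEAK ligand (-1.02 ± 0.15, adjusted p = 1.2e-05). With the nested replicate block 26 cytokine genes were higher and 4 lower.

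Of 26 tested chemokine genes 20 were called higher and 0 lower, with a median of 6.02. Cxcl10, an interferon-inducible attractant of T cells, was at 15045, 10494 and 15857 CPM with fibronectin and 18.4, 8.71 and 11.7 CPM untreated and rose by 10.06 ± 0.76 (adjusted p = 3.8e-09). Replicate 2 was the lowest of the libraries in both groups. Cxcl9, a ligand of the same receptor CXCR3, rose by 10.22 ± 0.88 (786, 445 and 1694 CPM against 0.572, 0.426 and 1.43 CPM). Ccl5, an attractant of T cells and monocytes, was at 2682, 1569.8 and 2241 CPM with fibronectin and 5.72, 7.81 and 3.75 CPM untreated and rose by 8.55 ± 0.74 (adjusted p = 2.1e-08). The monocyte attractant Ccl7 rose by 9.98 ± 0.62 (1065, 835 and 877 CPM against 0.987, 0.994 and 0.740 CPM). Cxcl1, which recruits neutrophils, was at 271, 156 and 97.9 CPM with fibronectin and 0.727, 0.237 and 0.148 CPM untreated, with replicate 1 highest in both groups (8.88 ± 0.85, adjusted p = 8.5e-08). Ccl3 and Ccl4 were already present without stimulus and rose by 5.92 ± 0.35 and 6.12 ± 0.32, Ccl4 to 9119, 6640.0 and 8012 CPM from 124, 112 and 105 CPM. Cxcl14 (-0.61 ± 0.31, adjusted p = 0.11) and Ccl6 (0.12 ± 0.71, adjusted p = 0.922) were the 2 uncalled chemokines named by the rule. With the nested replicate block 22 chemokines were higher and Cxcl14 was called lower (-0.61, adjusted p = 1.1e-06), and over library totals 18 chemokines were called higher and 2 lower.

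**Figure D2:**
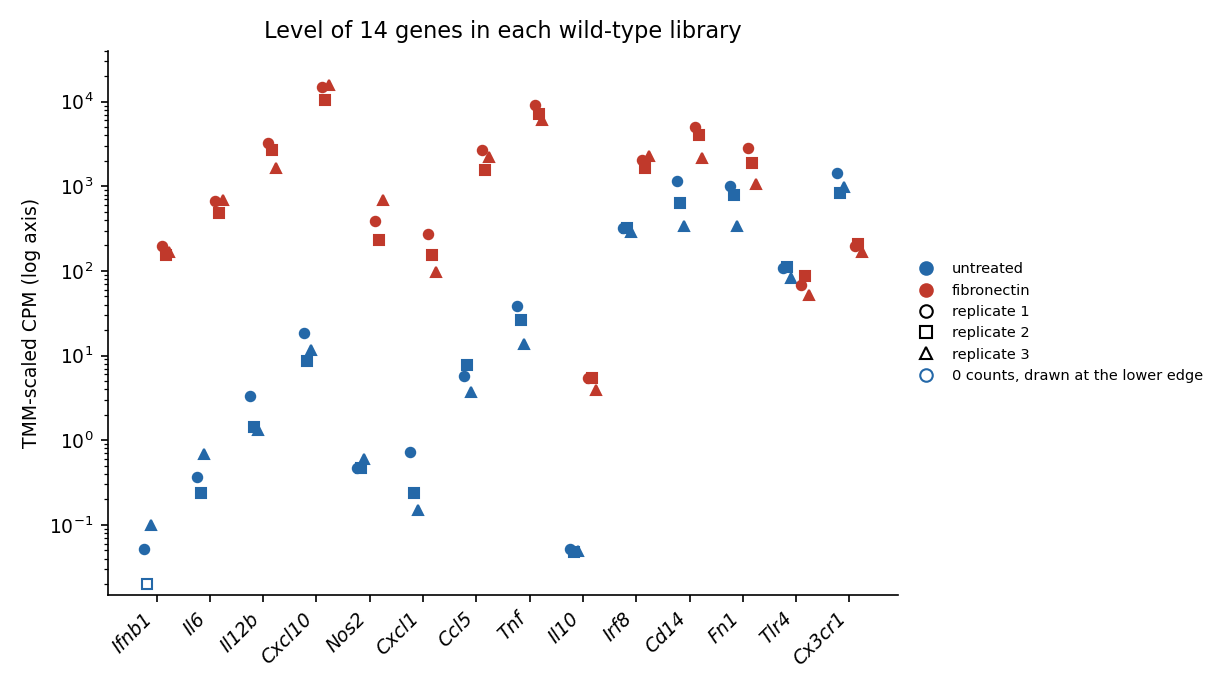
Level of 14 genes in each of the 6 wild-type libraries, as TMM-scaled CPM on a log axis; blue is untreated, red is fibronectin, and circles, squares and triangles are replicates 1, 2 and 3. The open square at the lower edge is Ifnb1 in untreated replicate 2, with 0 counts. The gap between the groups is wide for Tnf, Il6, Il12b and Cxcl10 (log2 changes of 8.16 to 10.46) and narrower for Irf8 and Cd14 (2.69 and 2.41), and the groups overlap for Tlr4.

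Of the LPS receptor complex, Cd14 rose, Tlr4 was not called, and Ly96 was called on the TMM scale. Cd14, at chr18:36725067-36726798 (minus strand) in GRCm38, the build also called mm10, stood at 5089, 4063 and 2177 CPM with fibronectin and 1150.2, 639 and 338 CPM untreated, with replicate 1 highest and replicate 3 lowest in both groups, and it rose by 2.41 ± 0.49 (adjusted p = 3.9e-04). Tlr4 was at 67.9, 87.5 and 52.4 CPM with fibronectin and 108, 113 and 83.4 CPM untreated. Its groups overlapped, and it was not called (-0.55 ± 0.32, adjusted p = 0.171), although each replicate was lower with fibronectin and the nested block called the difference (-0.57, adjusted p = 0.0041). Ly96, the MD-2 subunit, was at a mean of 15.8 CPM with fibronectin and 9.18 CPM untreated and rose by 0.78 ± 0.24 (adjusted p = 0.0112), a call lost without both replicate 1 libraries (adjusted p = 0.0933) and over library totals (-0.01).

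Of 28 tested genes of the TLR4 complex and its adaptors 16 were called higher and 3 lower (median 0.58), counts that became 7 higher and 13 lower over library totals, and 17 and 6 with the nested block. The adaptor Myd88 rose under both scalings; it was at 460.3, 347 and 505 CPM with fibronectin and 54.9, 48.8 and 52.5 CPM untreated (3.07 ± 0.20, adjusted p = 6.5e-10). Ikbke, a kinase of the interferon branch, rose by 3.51 ± 0.35 (484, 441 and 802 CPM against 54.8, 58.9 and 38.4 CPM) and the kinase Irak2 by 2.40 ± 0.29. The TRIF gene Ticam1, picked after its values were seen, was called at 1.06 ± 0.22 but not over library totals (0.27, adjusted p = 0.198), and Irf3, the transcription factor below it, was at 51.6, 42.6 and 50.6 CPM with fibronectin and 45.4, 38 and 46.0 CPM untreated and not called (0.16 ± 0.14, adjusted p = 0.381). The falls were in Tab1 (-1.86 ± 0.15), a partner of the kinase TAK1, Irak4 (-0.88 ± 0.15) and Cnpy3 (-0.84 ± 0.09), a chaperone that Toll-like receptors need to reach the surface.

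Other sensors of microbes moved in both directions, with more rises than falls. Of 27 tested pattern receptors and inflammasome genes 18 were called higher and 6 lower (median 1.96; 16 and 8 over library totals). Clec4e, the C-type lectin Mincle, rose by 6.48 ± 0.74 (2275, 1912 and 1403 CPM against 29.0, 25 and 8.78 CPM), the RNA sensor Ifih1 by 6.27 ± 0.39, the peptidoglycan sensor Nod2 by 5.54 ± 0.40 and Nlrp3, the inflammasome sensor, by 5.0 ± 0.31 (2452, 1802 and 1919 CPM against 76.9, 56.7 and 58.8 CPM). Tlr2, picked after its values were seen, rose by 3.90 ± 0.32. The endosomal receptors Tlr13 (-1.72 ± 0.31, adjusted p = 1.2e-04) and Tlr8 (-1.74 ± 0.32, adjusted p = 1.7e-04) fell, as did the inflammasome gene Nlrp1b (-2.82 ± 0.44).

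The cells' own fibronectin gene gave a case where pairing decides the call. Fn1, at chr1:71585520-71653200 (minus strand), was at 2829, 1894 and 1054 CPM with fibronectin and 1009, 780.4 and 337 CPM untreated. Every fibronectin library exceeded every untreated one, and within each replicate number the log2 ratio was 1.49, 1.28 and 1.64. Replicate 1 was the highest and replicate 3 the lowest in both groups, and Fn1 was not called (1.44 ± 0.80, adjusted p = 0.149). It was called with the nested block (1.47, adjusted p = 1.9e-08) and in the fit of the wild-type groups alone (1.42, adjusted p = 0.0486).

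Among 31 tested genes for fibronectin, integrins and their ligands 9 were called higher (29.0%, against 23.7% of all genes tested). Called lower were 4 (12.9%, against 26.5%), and the median was 0.51. The nested block called 21 higher and 4 lower, and library totals gave 7 higher and 10 lower. Sdc4, the syndecan that acts with integrins as a fibronectin receptor, changed most. It was at 5607, 3938 and 3149 CPM with fibronectin and 43.5, 36.2 and 29.2 CPM untreated, without overlap (6.87 ± 0.53, adjusted p = 5.3e-09). Itga5 and Itgb1, whose products form the classical fibronectin receptor, rose by 2.48 ± 0.26 and 0.81 ± 0.19, and Itgav by 2.05 ± 0.34; the 3 were picked after their values were seen, and the rise of Itgb1 was lost over library totals (0.02). Itga4, the alpha chain of VLA-4, rose by 2.70 ± 0.41 (751, 677 and 645 CPM against 119, 113 and 85.9 CPM), Itgal by 2.60 ± 0.49 and the hyaluronan receptor Cd44 by 2.88 ± 0.29. Itgb5 (-1.07 ± 0.12, adjusted p = 6.9e-07), Itga6 (-1.30 ± 0.16, adjusted p = 2.0e-06), Itgb3 (-1.44 ± 0.31, adjusted p = 7.5e-04) and the matrix protein gene Thbs1 (-1.61 ± 0.39, adjusted p = 0.0019) fell. Spp1, which encodes the integrin ligand osteopontin, was at 15095, 20293 and 14184 CPM with fibronectin and 10168, 14018 and 10085 CPM untreated and was not called (0.53 ± 0.31, adjusted p = 0.177), but it was with the nested block (0.53, adjusted p = 2.8e-06).

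Of 29 tested matrix protease and fibrinolysis genes 16 were called higher and 5 lower (median 1.17; 13 and 8 over library totals). Mmp13, a collagenase, was at 5320.5, 4528 and 7475 CPM with fibronectin and 14.7, 15.4 and 15.4 CPM untreated (8.57 ± 0.55, adjusted p = 6.5e-10). The untreated libraries lay within 1 CPM of each other, far below each fibronectin library. Mmp25 (8.29 ± 0.86) and the aggrecan-cleaving protease Adamts4 (7.97 ± 0.82) rose. Thbd, the anticoagulant receptor thrombomodulin, fell from 8.37, 6.11 and 16.8 CPM to 0.139, 0.219 and 0.269 CPM (-5.59 ± 0.62, adjusted p = 4.8e-07). Mmp19 fell by 2.47 on the log2 scale (3.14, 2.48 and 3.23 CPM against 15.6, 14.1 and 19.3 CPM), and Adam10, the sheddase, by 0.61 on that scale.

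**Figure D3:**
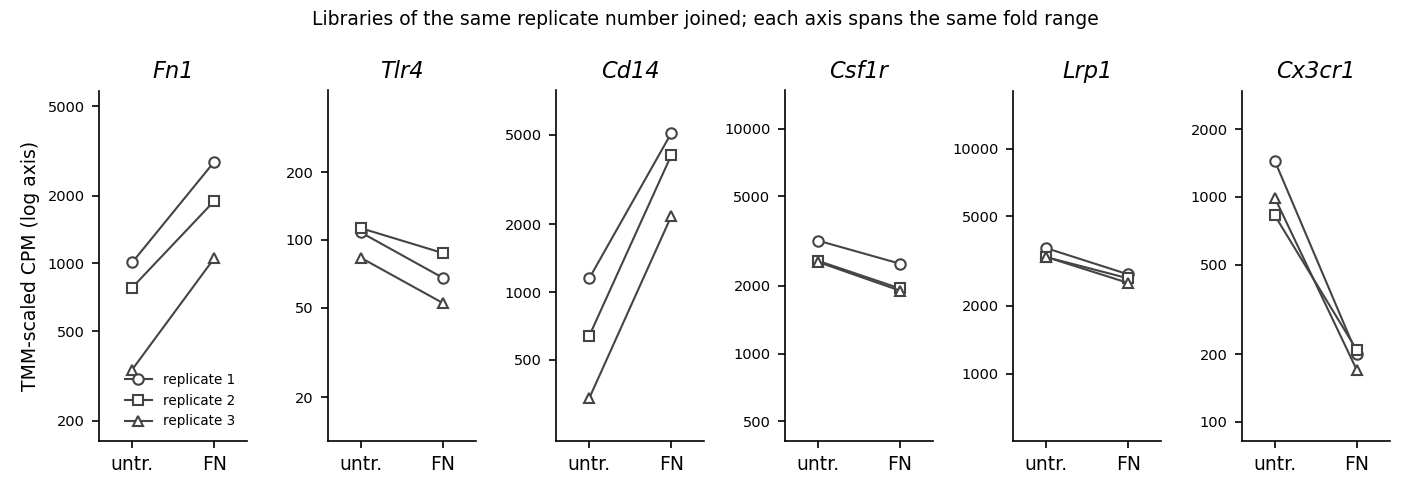
TMM-scaled CPM (log axes, each spanning the same fold range) of 6 genes in untreated (untr.) and fibronectin (FN) libraries; lines join libraries of the same replicate number. For Fn1, Tlr4 and Csf1r all 3 lines run in 1 direction although the genes were not called without the block, and the replicates differ in level; Cd14, Lrp1 and Cx3cr1 were called.

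The NF-kB genes rose nearly as a whole. Of 22 tested subunits, inhibitors and regulators 21 were called higher and 1 lower (median 3.44), and 19 and 2 over library totals. Tnfaip3, which encodes the ubiquitin-editing inhibitor A20, was at 4377, 3553 and 3890.0 CPM with fibronectin and 78.1, 70.0 and 48.5 CPM untreated (5.91 ± 0.37, adjusted p = 5.5e-10). The signalling adaptor Traf1 rose by 8.80 ± 0.68 (444, 308 and 331 CPM against 1.56, 0.237 and 0.641 CPM), and the inhibitor genes Nfkbie and Nfkbiz by 5.28 ± 0.34 and 4.73 ± 0.30. Nfkbia, which encodes the inhibitor IkBa, rose by 4.63 ± 0.26, and the subunit genes Nfkb1, Nfkb2 and Rela by 3.54 ± 0.19, 4.24 ± 0.18 and 1.90 ± 0.16, all 4 picked after their values were seen. The fall was in Map3k14, the kinase of the noncanonical branch (-0.82 ± 0.30, adjusted p = 0.0296). It was lost without fibronectin replicate 2 (adjusted p = 0.0816) or 3 (0.0987), without untreated replicate 1 (0.0743) or 3 (0.0885) and without both replicate 1 libraries (0.0666).

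Feedback genes rose beside them, 18 of 29 tested higher and 7 lower (median 2.47; 16 and 8 over library totals). Socs3, an inhibitor of JAK and STAT signalling, was at 2673, 2125 and 2605 CPM with fibronectin and 9.35, 5.49 and 4.29 CPM untreated (8.6 ± 0.56, adjusted p = 8.3e-10). Its relatives Socs1 (312, 231 and 485 CPM against 0.987, 0.426 and 0.592 CPM) and Cish (399, 270.2 and 279 CPM against 0.727, 0.615 and 1.18 CPM) rose by 8.99 ± 0.79 and 8.54 ± 0.75, and Dusp2, a phosphatase of MAP kinases, by 8.46 ± 0.56. The RNA decay factor Zfp36, tristetraprolin, rose by 3.39 ± 0.26 (picked after its values were seen), whereas its paralogs fell: Zfp36l2 was at 12.5, 12 and 7.61 CPM with fibronectin and 277, 205 and 191 CPM untreated (-4.39 ± 0.53, adjusted p = 1.5e-06) and Zfp36l1 changed by -2.76 ± 0.40. Tsc22d3, the glucocorticoid-induced leucine zipper GILZ, fell from 43.1, 34.6 and 48.6 CPM to 7.53, 7.58 and 4.04 CPM (-2.72 ± 0.30, adjusted p = 3.5e-07). Dusp7 changed by -2.49 ± 0.51.

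Immediate early transcription factors were called in both directions. Of 27 tested 11 were higher (40.7%, against 23.7% of all genes tested) and 6 lower (22.2%, against 26.5%), with a median of 0.42. Over library totals 9 were higher and 11 lower. The median was 0.20 without fibronectin replicate 1, 0.64 without fibronectin replicate 2 and 0.71 without untreated replicate 1. Csrnp1 (545, 463 and 517 CPM against 7.95, 8.05 and 4.98 CPM), Nr4a3, Maff and Mafk rose by 6.18 ± 0.39, 4.82 ± 0.63, 4.8 ± 0.48 and 3.78 ± 0.28. Klf10 (-1.64 ± 0.31, adjusted p = 2.4e-04) and Klf4 (-1.85 ± 0.43, adjusted p = 0.0014) fell. Jun was at 44.5, 47.2 and 103 CPM with fibronectin and 66.6, 66.8 and 78.0 CPM untreated and was not called (-0.12 ± 0.31, adjusted p = 0.816), and Fos and Myc, picked after their values were seen, were at -1.43 ± 0.36 and -1.50 ± 0.36. The call of Fos was lost without both replicate 1 libraries (adjusted p = 0.0661).

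Interferon beta, most of its regulators and nearly all interferon-stimulated genes tested were higher with fibronectin. Ifnb1, which encodes interferon beta, lies at chr4:88522025-88522774 (minus strand) and stood at 199, 153 and 166 CPM with fibronectin and 0.0520, 0 and 0.0987 CPM untreated. It had 7407 counts with fibronectin and 3 untreated, 3488 times as many after scaling (95% counting interval 1193 to 16919). Of 20 tested genes of the list of IRF, STAT and JAK genes, which includes Ifnb1, 16 were called higher and 0 lower (median 1.79; 13 and 2 over library totals). Irf1 was at 2955, 2500.5 and 2760.4 CPM with fibronectin and 38.9, 36.1 and 42.6 CPM untreated (6.13 ± 0.33, adjusted p = 1.4e-10), Irf7, the amplifier of the interferon loop, rose by 5.51 ± 0.73 and the kinase Jak2 by 4.46 ± 0.25. Stat2, picked after its values were seen, rose by 3.65 ± 0.33. Stat6, the IL-4 signal transducer, was at 206, 239 and 219.5 CPM with fibronectin and 211, 224 and 236 CPM untreated and not called (-0.01 ± 0.12, adjusted p = 0.945), but was called lower over library totals (-0.80).

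Of 46 tested interferon-stimulated genes 45 were called higher and 0 lower (median 4.93), and 43 over library totals. Rsad2, the antiviral enzyme viperin, was at 18162, 16731 and 18209 CPM with fibronectin and 25.2, 25.6 and 22.1 CPM untreated (9.51 ± 0.64, adjusted p = 1.1e-09). The spread within each group was small beside the gap between them. The guanylate-binding protein gene Gbp5 rose by 9.71 ± 0.58 (3225, 2453 and 4020.0 CPM against 5.4, 2.41 and 3.75 CPM), Oasl1 by 9.48 ± 0.78, the nucleotide kinase Cmpk2 by 8.95 ± 0.59 and Ifit2, which blocks viral RNA translation, by 8.04 ± 0.75. The exception, Ifi27l2a, was at 31.8, 76.2 and 114 CPM with fibronectin and 12.3, 47.5 and 38 CPM untreated (1.18 ± 0.76, adjusted p = 0.216) and was called with the nested block (1.21, adjusted p = 5.2e-06).

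Promoter sequences were read for 3 genes that rose and 1 that fell, to show which of 3 short motifs stand within them. The windows are RefSeq sequences of GRCm38.p6, here the 250 bases before the start given for each gene in RefSeq's promoter table, 5′ to 3′ on the gene's strand, with matches in capitals. Motifs were searched on both strands: the NF-kB core GGANTTTCC, the interferon response element core TTCNNTTTC and the AP-1 site TGANTCA. Matches of different motifs can overlap.
Cxcl10 promoter, chr5:92348890-92349139 (minus strand): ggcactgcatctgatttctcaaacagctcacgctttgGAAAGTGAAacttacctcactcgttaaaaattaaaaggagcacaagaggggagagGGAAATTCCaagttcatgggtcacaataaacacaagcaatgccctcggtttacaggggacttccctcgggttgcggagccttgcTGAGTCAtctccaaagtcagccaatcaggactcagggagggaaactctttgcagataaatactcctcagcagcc
Il6 promoter, chr5:30012864-30013113 (plus strand): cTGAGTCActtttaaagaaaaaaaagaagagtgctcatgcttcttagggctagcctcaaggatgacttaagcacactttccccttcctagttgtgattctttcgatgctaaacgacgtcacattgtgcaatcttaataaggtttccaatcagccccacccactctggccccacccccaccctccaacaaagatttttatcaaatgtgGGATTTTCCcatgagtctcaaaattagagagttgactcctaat
Nfkbia promoter, chr12:55492648-55492897 (minus strand): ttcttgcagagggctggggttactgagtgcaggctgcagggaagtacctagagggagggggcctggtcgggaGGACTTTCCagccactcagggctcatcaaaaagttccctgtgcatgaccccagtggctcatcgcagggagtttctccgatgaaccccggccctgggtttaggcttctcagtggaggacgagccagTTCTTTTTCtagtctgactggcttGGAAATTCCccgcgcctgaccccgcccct
Cx3cr1 promoter, chr9:120068297-120068546 (minus strand): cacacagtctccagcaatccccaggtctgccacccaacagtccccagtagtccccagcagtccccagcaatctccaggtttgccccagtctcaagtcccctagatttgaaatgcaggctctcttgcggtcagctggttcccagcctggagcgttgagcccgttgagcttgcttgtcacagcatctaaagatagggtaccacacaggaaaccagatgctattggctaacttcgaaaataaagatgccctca
In Cxcl10 the capitals mark, from left to right, an interferon element core (GAAAGTGAA, first base 213 before the start), an NF-kB core (GGAAATTCC, 158 before) and an AP-1 site (TGAGTCA, 74 before). Il6 held an AP-1 site at 249 and an NF-kB core (GGATTTTCC) at 43 bases before the start. Nfkbia held NF-kB cores at 178 (GGACTTTCC) and 29 (GGAAATTCC) and an interferon element core (TTCTTTTTC) at 53 bases before the start. The Cx3cr1 window held none of the 3. The start used for Cx3cr1, from RefSeq, lies inside the span given for the gene below, which is from another annotation, GENCODE. The absence of a match therefore says only that these letters are not before this start.

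The same motifs were counted over all windows of 300 bases, 250 before and 50 after the start, of which 10468 of the 13294 tested genes had at least 1. The NF-kB core stood in 1.25% of all 32851 windows, in 1.39% of the 13385 windows of tested genes, in 5.87% of the windows of genes that rose by more than 3 on the log2 scale and in 0.885% of those of genes that fell. The interferon element core stood in 8.56% of all windows, 7.24% of those of tested genes, 19.3% of those of the largest rises and 5.06% of those of genes that fell, and in 23 of 42 windows (54.8%) of the interferon-stimulated genes. The AP-1 site stood in 7.81% of all windows, 5.30% of those of tested genes, 14.3% of those of the largest rises and 4.31% of those of genes that fell. These shares are descriptions, and a match is not a binding site.

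Nos2, Irg1 and Ptgs2, effector genes of activated macrophages, rose. Of 11 tested genes for nitric oxide, arginine and itaconate 6 were called higher and 1 lower (median 1.85), 7 and 2 with the nested block and 6 and 3 over library totals. Nos2, the inducible nitric oxide synthase, at chr11:78920787-78960254 (plus strand), was at 388, 234 and 684 CPM with fibronectin and 0.468, 0.473 and 0.592 CPM untreated (9.71 ± 0.72, adjusted p = 3.2e-09). Replicate 3 was the highest with fibronectin, and the untreated libraries were all under 1 CPM. Irg1, which makes itaconate, was at 12465, 8559.7 and 12391 CPM with fibronectin and 33.7, 20.4 and 14 CPM untreated (8.94 ± 0.78, adjusted p = 2.4e-08). Slc7a2, an arginine importer, rose by 5.95 ± 0.90 and Gch1, which makes the cofactor of nitric oxide synthase, by 4.20 ± 0.23. The single fall, Pts (-0.53 ± 0.19, adjusted p = 0.0248), was lost without fibronectin replicate 1 (adjusted p = 0.0835) or 2 (0.112), untreated replicate 1 (0.0537) or 3 (0.0924) or both replicate 1 libraries (0.136).

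Of 18 tested prostaglandin and leukotriene genes 6 were higher (33.3%, against 23.7% of all genes tested) and 3 lower (16.7%, against 26.5%). Higher and lower calls were 7 and 5 with the nested block, and 3 and 9 over library totals. The median was 0.04. Leaving out 1 library moved the median between -0.04 (untreated replicate 1) and 0.15 (fibronectin replicate 1). Ptgs2, which encodes cyclooxygenase-2, was at 2901, 2420.1 and 2339 CPM with fibronectin and 4.36, 3.69 and 3.75 CPM untreated (9.34 ± 0.62, adjusted p = 1.0e-09), and Ptges, the prostaglandin E synthase, rose by 7.74 ± 0.53 (adjusted p = 1.3e-09). Hpgd, which breaks prostaglandins down, fell from 713, 491 and 657 CPM to 272, 228 and 202 CPM (-1.41 ± 0.17, adjusted p = 1.2e-06). The phospholipase Pla2g15 fell too (-1.77 ± 0.19). Hdc, which makes histamine and lies outside the lists, was at 78.7, 36.8 and 96.5 CPM with fibronectin and 0.0520, 0 and 0.148 CPM untreated (9.92 ± 0.89, adjusted p = 3.4e-08). Its untreated level rests on a few reads, so the size of the fitted change depends on the prior count.

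Class I antigen presentation and costimulation genes rose. In the MHC class I list 17 of 19 were higher and 0 lower (median 2.09; 13 and 2 over library totals), led by the peptide transporter Tap1 (896, 641 and 977 CPM against 43.7, 54.4 and 47.9 CPM; 4.11 ± 0.28, adjusted p = 1.4e-09) and Nlrc5, the class I transactivator (3.84 ± 0.42). In the list of MHC class II and costimulation 11 of 17 were higher and 1 lower (median 2.64; 9 and 3 over library totals). Its leading genes were adhesion and costimulatory receptors, not class II genes: Vcam1 (8.84 ± 0.63), Cd40 (1278, 828 and 1109 CPM against 4.68, 3.69 and 1.83 CPM; 8.30 ± 0.64, adjusted p = 5.0e-09), Icam1 (6.36 ± 0.37) and Cd274, the checkpoint ligand PD-L1 (5.91 ± 0.35). The class II gene H2-Ab1, picked after its values were seen, was not called (1.11 ± 0.61, adjusted p = 0.143) except with the nested block (1.11, adjusted p = 9.7e-04) or in the fit of the wild-type groups alone (1.09, adjusted p = 0.0342), nor was the loading factor H2-DMb1 (-0.20 ± 0.31, adjusted p = 0.67). Cd200r1, an inhibitory receptor, fell (-1.24 ± 0.28, adjusted p = 0.0011).

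Receptors for cytokines and chemokines moved in both directions. Of 37 tested 17 were higher (45.9%, against 23.7% of all genes tested) and 8 lower (21.6%, against 26.5%), with a median of 0.42. Higher and lower calls were 20 and 13 with the nested block, 13 and 16 over library totals, and 15 and 5 without both replicate 1 libraries. Ccrl2, an atypical chemokine receptor, rose by 6.76 ± 0.39 and the death receptor Fas by 5.69 ± 0.47. Cxcr4, the CXCL12 receptor, fell from 124, 106 and 164 CPM to 1.60, 2.11 and 2.02 CPM (-6.10 ± 0.85, adjusted p = 8.5e-06). Both chains of the IL-6 receptor fell: Il6ra was at 23.2, 22.2 and 18.8 CPM with fibronectin and 84.4, 84.1 and 86.1 CPM untreated (-1.99 ± 0.15, adjusted p = 3.6e-09) and Il6st changed by -1.89 ± 0.20 (adjusted p = 2.3e-07). Of 20 tested growth factor genes 8 were higher (40%, against 23.7% of all genes tested) and 5 lower (25%, against 26.5%). Higher and lower calls were 6 and 12 over library totals, and 9 and 9 with the nested block. The median was -0.01. The median ran from -0.07 without fibronectin replicate 3 to 0.08 without untreated replicate 1. Called higher were 5 of them without fibronectin replicate 1 or 2, untreated replicate 2 or 3 or both replicate 1 libraries. Edn1, which encodes the vasoconstrictor endothelin-1, was at 363, 244 and 139.9 CPM with fibronectin and 0.416, 0.142 and 0.148 CPM untreated (10.02 ± 1.02, adjusted p = 1.7e-07), and Adm, adrenomedullin, a vasodilator, rose by 8.38 ± 0.76. Hgf (5.99, 6.56 and 7.81 CPM against 45.7, 39.0 and 75.4 CPM) and Tgfb3 fell (-2.97 ± 0.38 and -2.63 ± 0.49), and Igf1 was at 1722, 1578 and 1507 CPM with fibronectin and 1676, 1496 and 1429 CPM untreated and not called (0.06 ± 0.24, adjusted p = 0.877).

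Of 31 tested genes of the homeostatic list, drawn up to describe resting microglia, 5 were higher (16.1%, against 23.7% of all genes tested) and 8 lower (25.8%, against 26.5%). The median was -0.12, and it ran from -0.21 without untreated replicate 1 and -0.20 without fibronectin replicate 3 to -0.04 without fibronectin replicate 1. Higher and lower calls were 11 and 13 with the nested block, 9 and 8 by DESeq2, 8 and 7 with RLE scaling, and 1 and 21 over library totals. Called higher were 3 of them without fibronectin replicate 3, without untreated replicate 1 or 3 or without both replicate 1 libraries, and lower were 5 without untreated replicate 1 or both replicate 1 libraries. Cx3cr1, the fractalkine receptor, at chr9:119901616-120069879 (minus strand), was at 199.8, 208 and 169.7 CPM with fibronectin and 1445, 827 and 990.0 CPM untreated (-2.50 ± 0.22, adjusted p = 2.2e-08). Its groups were well apart, with untreated replicate 1 the highest. Bhlhe41, a repressor tied to microglial identity, fell by 3.79 on the log2 scale (3.00, 5.03 and 1.41 CPM against 38.6, 59.4 and 32.7 CPM) and the receptor Gpr34 by 2.07 (24.7, 30.0 and 19.5 CPM against 88.2, 89.0 and 134 CPM). P2ry12, the ADP receptor, was at 9.83, 12.7 and 10.4 CPM with fibronectin and 24.2, 24.6 and 23.8 CPM untreated (-1.14 ± 0.42, adjusted p = 0.0309), and its call was lost without fibronectin replicate 1 (adjusted p = 0.0918) or 3 (0.0801), without any 1 untreated replicate (0.0571 to 0.0603) and without both replicate 1 libraries (0.136).

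Other genes of the homeostatic list were not called or rose. Csf1r was not called (-0.39 ± 0.20, adjusted p = 0.119), although it was lower in each replicate pair and called lower with the nested block (-0.39, adjusted p = 3.1e-05). Gpr84, counted in this list although it is a fatty acid receptor induced by inflammation, rose by 4.97 ± 0.55 (1595, 1146 and 1088 CPM against 72.1, 34.6 and 15.5 CPM). It was the largest rise of the list. Sall1, the transcription factor most specific to microglia in the brain, was at 27.7, 35.6 and 74.5 CPM with fibronectin and 12.2, 14.1 and 24.5 CPM untreated, with replicate 3 highest in both groups (1.44 ± 0.51, adjusted p = 0.0248). That call was lost without fibronectin replicate 3 (adjusted p = 0.179), untreated replicate 1 (0.0935) or 2 (0.0823) or both replicate 1 libraries (0.0620), and over library totals (0.66, adjusted p = 0.329).

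Among 32 tested myeloid transcription factors 12 were higher (37.5%, against 23.7% of all genes tested) and 12 lower (37.5%, against 26.5%). Over library totals 9 were higher and 18 lower. The median was -0.43. The median was -0.28 without fibronectin replicate 3 and -0.29 without untreated replicate 1. Irf8, a lineage factor of microglia, at chr8:120736358-120756694 (plus strand), was at 2036, 1668 and 2305 CPM with fibronectin and 326, 320.1 and 287 CPM untreated (2.69 ± 0.15, adjusted p = 2.1e-10), with no overlap and little spread in either group. Tfec, Batf and Mitf rose by 4.77 ± 0.37, 3.20 ± 0.33 and 2.63 ± 0.32. Cebpa, a driver of myeloid differentiation, was at 9.34, 11.2 and 8.35 CPM with fibronectin and 413, 407 and 420.4 CPM untreated (-5.42 ± 0.40, adjusted p = 3.1e-09), with hardly any spread among the untreated libraries. The lysosomal regulator Tfeb and the nuclear receptor Rxra changed by -3.51 ± 0.35 and -2.70 ± 0.22. Cebpb and Cebpd, picked after their values were seen, rose by 2.13 ± 0.45 and 2.60 ± 0.35.

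Purine, lipid and cannabinoid receptors held several of the largest falls. Of 23 tested genes 5 were higher (21.7%, against 23.7% of all genes tested) and 8 lower (34.8%, against 26.5%). Higher and lower calls were 4 and 14 over library totals, and 8 and 10 with the nested block. The median was -0.14. That median rests on single libraries: it was -0.68 without fibronectin replicate 2, 0.01 without fibronectin replicate 3, 0.08 without untreated replicate 2, -0.42 without untreated replicate 1 and -0.33 without untreated replicate 3. Cnr2, the cannabinoid receptor CB2, was at 0.209, 0.437 and 0.404 CPM with fibronectin and 34.6, 31.7 and 42.7 CPM untreated (-6.67 ± 0.56, adjusted p = 1.3e-08). The lysophospholipid receptors Lpar5 (-5.05 ± 0.39) and Lpar6 (-4.71 ± 0.35) and S1pr1, a sphingosine phosphate receptor (9.06, 16.5 and 11.2 CPM against 224, 185 and 255 CPM; -4.17 ± 0.43, adjusted p = 1.8e-07), fell. Against them, the adenosine receptor Adora2a was at 127, 102 and 107 CPM with fibronectin and 0.260, 0.0473 and 0.197 CPM untreated (9.34 ± 0.80, adjusted p = 2.0e-08), and Adora2b and the nucleotide receptor P2ry2 rose by 5.36 ± 0.56 and 3.05 ± 0.38.

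Other large falls came from several classes. Bmf, a pro-apoptotic member of the BCL2 family, was at 0.418, 0.583 and 0.673 CPM with fibronectin and 50.1, 38 and 67.6 CPM untreated (-6.52 ± 0.63, adjusted p = 7.9e-08), and Cd300lb, an activating receptor of myeloid cells, was at 2.93, 4.08 and 3.23 CPM with fibronectin and 226, 190.4 and 244 CPM untreated (-6.01 ± 0.39, adjusted p = 6.8e-10). Sesn1, a stress-induced inhibitor of mTORC1, fell from 227, 172 and 229 CPM to 4.32, 6.05 and 4.11 CPM (-5.44 ± 0.34, adjusted p = 4.4e-10). Zfp395, BC031353, Arrdc3 and Rtn4rl1 complete the 12 largest falls among called genes with at least 5 CPM in the higher group, no overlap and more than 3 counts in each group, at -5.72, -5.47, -5.09 and -5.03. Weighted by level, the falls that removed most counts included Cx3cr1, Sirpa, the receptor for the signal CD47 (1572, 1546 and 1133 CPM against 3457, 2822 and 2019 CPM; -0.96 ± 0.25, adjusted p = 0.0029), the long noncoding RNA Neat1 (-1.55 ± 0.30), Slc43a2, an amino acid carrier (-2.50 ± 0.15), and Lhfpl2 (-4.94 ± 0.43). Lrp1, an endocytic receptor, was at 2758, 2647 and 2526 CPM with fibronectin and 3609, 3292 and 3295 CPM untreated (-0.36 ± 0.11, adjusted p = 0.0129), a call lost without fibronectin replicate 3 (adjusted p = 0.0504), untreated replicate 1 (0.0539) or both replicate 1 libraries (0.0642).

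Of 31 tested phagocytic, scavenger and Fc receptors 13 were higher (41.9%, against 23.7% of all genes tested) and 4 lower (12.9%, against 26.5%). The median was 0.34, and it was 0.22 without untreated replicate 3 and 0.51 without fibronectin replicate 3. Higher and lower calls were 7 and 11 over library totals, 19 and 9 with the nested block, and 9 and 2 without both replicate 1 libraries. The oxidised lipoprotein receptor Olr1 rose by 6.53 ± 0.65 (79.6, 89.9 and 66.5 CPM against 1.45, 0.994 and 0.0987 CPM) and the phosphatidylserine receptor Timd4 by 4.76 ± 1.11. Cd300a, an inhibitory receptor for phosphatidylserine, fell (-2.15 ± 0.22, adjusted p = 1.4e-07). Of 14 complement genes 6 were higher and 0 lower (median 0.69), 12 higher with the nested block and 4 higher and 4 lower over library totals. C3 was at 812, 791 and 1427 CPM with fibronectin and 48.2, 112 and 14.8 CPM untreated (4.11 ± 0.76, adjusted p = 1.6e-04) and factor B, Cfb, rose by 4.29 ± 0.58. Serping1, the C1 inhibitor, went from 1 count to 599 (ratio 846, 151 to 33483). C1qb was at 2481, 2081 and 2326 CPM with fibronectin and 1649, 1443 and 1283 CPM untreated. It was called (0.65 ± 0.21, adjusted p = 0.0121), but not without untreated replicate 3 (adjusted p = 0.0582), and turned to -0.13 over library totals.

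In the list of cell death and survival genes 19 of 33 were higher and 6 lower (median 0.85; 8 and 9 over library totals). Gadd45b (6.35 ± 0.33), Cflar, which blocks caspase-8 (2581, 2080.3 and 1817 CPM against 115, 100.2 and 76.6 CPM; 4.47 ± 0.37, adjusted p = 1.3e-08), the necroptosis effector Mlkl (4.77 ± 0.51) and Ripk2, the kinase of NOD signalling (4.86 ± 0.29), rose. Casp9 and Pmaip1, both pro-apoptotic, fell (-2.46 ± 0.14 and -1.92 ± 0.27). Bcl2a1a and Bcl2a1d are near-identical copies between which counting may split reads, so their values are uncertain. Bcl2a1a was at 1449.6, 74.1 and 53.0 CPM with fibronectin and 51.4, 0.426 and 0.148 CPM untreated and was not called (4.93 ± 2.75, adjusted p = 0.153), with replicate 1 far above the others in both groups. Bcl2a1d behaved alike (4.76 ± 2.07, adjusted p = 0.0658). The nested block called both (5.57, adjusted p = 4.9e-07, and 5.14, adjusted p = 3.1e-08), and so did the fit without untreated replicate 1 (adjusted p = 0.0467 and 0.0306).

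Of 26 tested glycolysis and lactate genes 10 were higher (38.5%, against 23.7% of all genes tested) and 4 lower (15.4%, against 26.5%). Over library totals 6 were higher and 7 lower. The median was 0.38 with all libraries. The median was 0.17 without fibronectin replicate 1, 0.12 without untreated replicate 3 and 0.58 without untreated replicate 1, and the list holds Gapdh and Pgk1, which were far higher in replicate 1 of both groups. Hk2, the inducible hexokinase, was at 711, 606 and 600.2 CPM with fibronectin and 89.6, 82.4 and 67.7 CPM untreated (3.00 ± 0.26, adjusted p = 1.8e-08). The glucose carriers Slc2a6 and Slc2a1 rose by 4.56 ± 0.64 and 2.40 ± 0.27, and Pfkfb3, which speeds glycolysis, by 2.50 ± 0.38. Pdk2 and Txnip, which restrain glucose use, fell (-2.20 ± 0.34 and -0.82 ± 0.13). Ldha was not called (0.40 ± 0.33, adjusted p = 0.361) but was with the nested block (0.41, adjusted p = 8.9e-05).

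Of 29 tested sterol synthesis and efflux genes 9 were lower (31.0%, against 26.5% of all genes tested) and 4 higher, with a median of -0.48 (-0.24 without fibronectin replicate 2). Lower and higher calls were 19 and 6 with the nested block, and 21 and 1 over library totals. Lss, Dhcr7 and Sqle, enzymes of cholesterol synthesis, changed by -1.56 ± 0.23, -1.54 ± 0.17 and -1.17 ± 0.27. Ch25h, which makes 25-hydroxycholesterol, rose from 187, 149 and 42.3 CPM to 3924, 3513 and 2824 CPM (4.76 ± 0.87, adjusted p = 1.5e-04). In the oxidative stress and metal list 15 of 30 were higher and 2 lower (median 0.84, 0.51 without fibronectin replicate 1; 9 and 7 calls over library totals). The cystine carrier Slc7a11 (5.52 ± 1.08), mitochondrial superoxide dismutase Sod2 (1259, 803 and 923 CPM against 78.1, 59.8 and 40.2 CPM; 4.07 ± 0.35, adjusted p = 1.7e-08) and the zinc carrier Slc39a14 (3.55 ± 0.32) rose, and Slc40a1, the iron exporter ferroportin, fell (-2.39 ± 0.43, adjusted p = 1.1e-04).

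Of 37 tested cell cycle genes 8 were called lower (21.6%, against 26.5% of all genes tested) and 2 higher, with a median of -0.79. The nested block called 29 lower and 3 higher, the fit of the wild-type groups alone 25 and 2, library totals 19 and 2, and the fit without both replicate 1 libraries 5 and 2. E2f2, an activator of S phase genes, was at 0.697, 1.24 and 0.673 CPM with fibronectin and 22.9, 16.8 and 21.6 CPM untreated (-4.55 ± 0.94, adjusted p = 4.6e-04), and Cdc6, which licenses replication, was at -3.30 ± 0.79. The 2 rises were Cdkn1a, the inhibitor p21 (6169, 3653 and 4617 CPM against 294, 262 and 245 CPM; 4.17 ± 0.35, adjusted p = 1.5e-08), and Ccnd2, cyclin D2 (269, 200.4 and 221 CPM against 3.53, 7.71 and 3.40 CPM; 5.55 ± 0.70, adjusted p = 2.2e-06). Mki67 was at 486, 381 and 324 CPM with fibronectin and 347, 232 and 349.5 CPM untreated and not called (0.36 ± 0.87, adjusted p = 0.801).

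Of 19 common reference genes 1 was higher and 2 lower (median 0.28), 9 and 4 with the nested block, and 0 and 7 over library totals. The median was -0.16 without fibronectin replicate 1, 0.09 and 0.13 without untreated replicate 3 or 2, 0.12 without both replicate 1 libraries, and 0.46 and 0.55 without fibronectin replicate 3 or untreated replicate 1. DESeq2 called 3 higher, and RLE scaling 2, as did the fits without fibronectin replicate 3 or untreated replicate 1. The rise was Actb (1.44 ± 0.52, adjusted p = 0.0276), whose call was lost over library totals (0.65, adjusted p = 0.219), without fibronectin replicate 1 (0.141), untreated replicate 2 (0.0588) or 3 (0.123), or both replicate 1 libraries (0.0943). Polr2a was lower (181, 196 and 186 CPM against 349, 345 and 415 CPM; -0.98 ± 0.13, adjusted p = 4.3e-06).

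**Figure D4:**
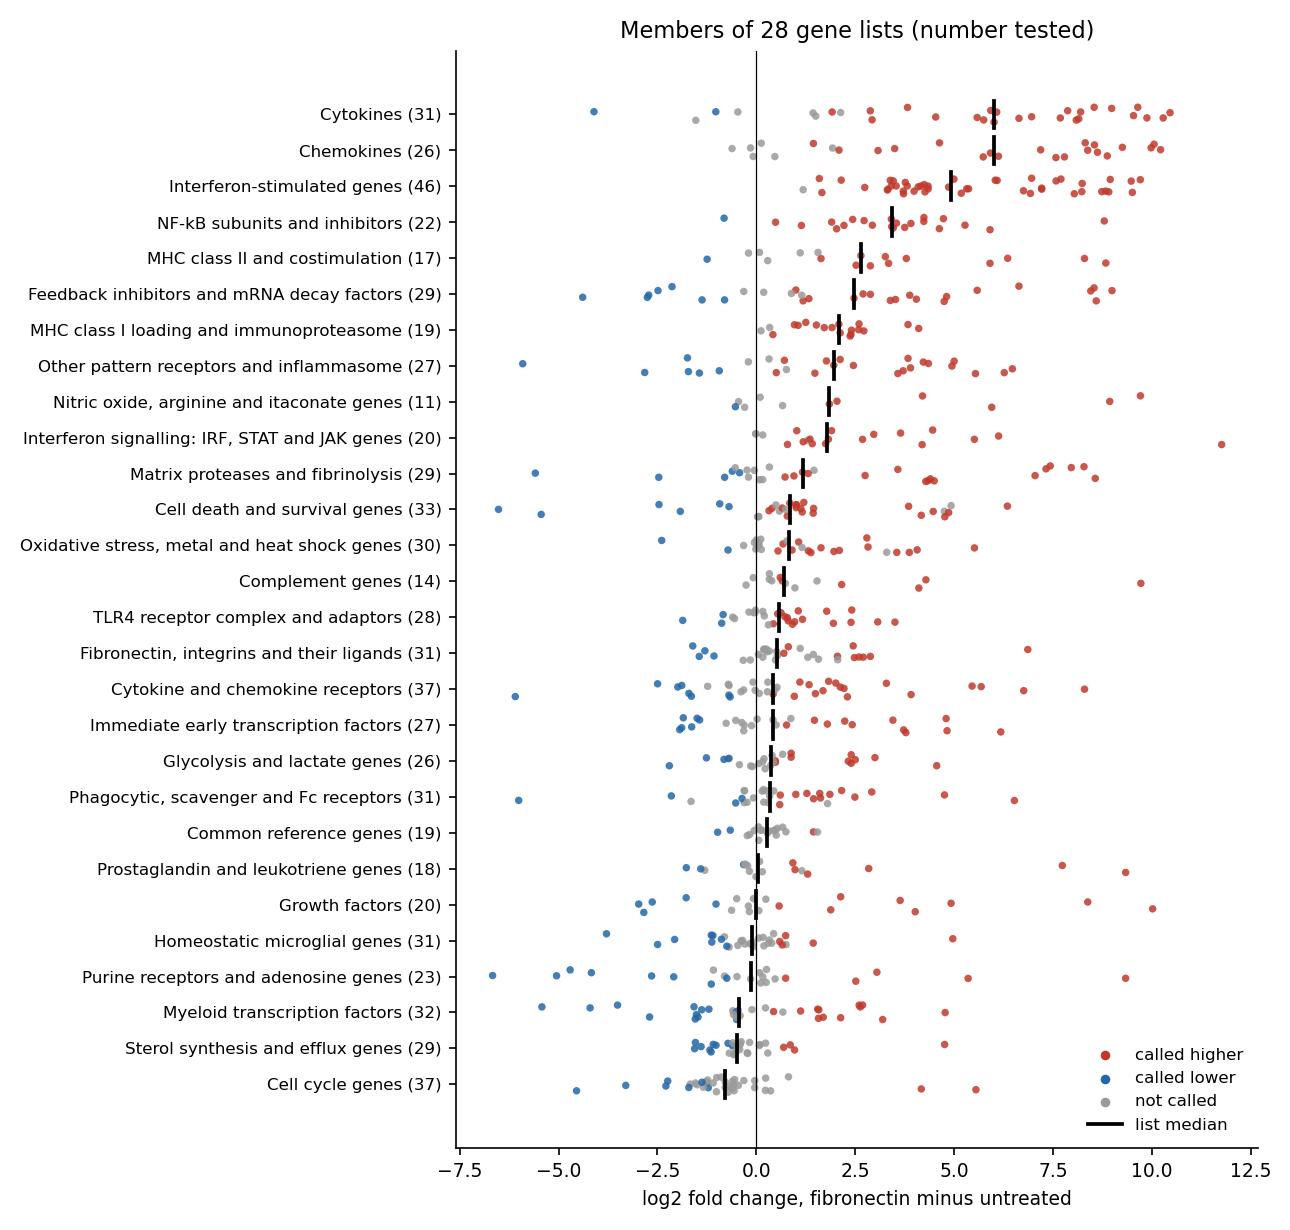
Each point is a tested member of 1 of 28 gene lists (number tested in brackets), placed by its log2 fold change, fibronectin minus untreated, or, for genes with 3 or fewer untreated counts, by the log2 of the ratio of pooled counts; red was called higher, blue lower, grey not, and black bars are list medians. Tlr5, with no fibronectin counts, stands at its fitted value. Medians run from 6.02 for chemokines and 6.01 for cytokines to -0.79 for cell cycle genes.

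Fibronectin was then set against the LPS doses within the wild type. Against LPS at 10 ng/ml 0 of 13294 genes were called by edgeR (percent called 0), and 0 by DESeq2, by limma and with the nested replicate block. In the edgeR fit without the block 105 genes had an unadjusted p under 0.05. A count of 0 does not show equality. The intervals below are those of the fit without the block, which leaves differences between replicate numbers in its spread. Intervals of the blocked fit are not given here. Over the 6670 genes called between fibronectin and untreated, the log2 difference had a median size of 0.0842, and its 95% interval had a median half-width of 0.430. Tnf was at 9134, 7198 and 6093 CPM with fibronectin and 7401, 6164 and 6379 CPM with LPS, a log2 difference of 0.17 ± 0.89 (95% half-width). Nos2 was at 388, 234 and 684 CPM and 275, 194 and 548 CPM (0.36 ± 0.99). The narrowest of the genes set out here was Irf8, at 2036, 1668 and 2305 CPM and 1896, 2141 and 1534 CPM (0.11 ± 0.30). Cx3cr1, at 199.8, 208 and 169.7 CPM and 212, 192 and 148 CPM, differed by 0.07 ± 0.43, Cd14 by -0.02 ± 0.97 and Cxcl10 by 0.05 ± 1.08. The libraries of both stimuli overlapped for each of these genes.

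Against LPS at 0.1 ng/ml 4365 genes were called (32.8%), 2030 higher (15.3%) and 2335 lower (17.6%) with fibronectin. The nested block called 7781, and library totals 857 higher and 6003 lower. Irf8 was at 248, 267 and 217 CPM at the low dose, below every fibronectin library (3.04 ± 0.16, adjusted p = 1.5e-09). Il6 was at 38.9, 23.9 and 5.18 CPM (4.77 ± 0.60, adjusted p = 1.1e-05) and Tnf at 2117, 1432 and 438 CPM (2.49 ± 0.45, adjusted p = 2.9e-04), in both cases with replicate 3 the lowest. Nos2 (4.82 ± 0.56) and Edn1 (5.04 ± 0.78) were higher with fibronectin. Lower with fibronectin were Bmf (-4.58 ± 0.59), Cd300lb (-4.48 ± 0.36), Sesn1 (-4.10 ± 0.32) and Cx3cr1 (-2.12 ± 0.21, adjusted p = 1.2e-06). Cd14 was not called (0.85 ± 0.47, adjusted p = 0.186) but was with the nested block (0.93, adjusted p = 7.6e-06), and Fn1 likewise (block 0.74, adjusted p = 0.00013).

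The last comparison asked whether the fibronectin response was the same without CD14. Cd14 itself was at 4.40, 5.25 and 3.42 CPM with fibronectin and 4.58, 4.14 and 3.05 CPM untreated in KO libraries, far below every wild-type library. In KO cells 2180 genes were called between fibronectin and untreated (16.4%), 1227 higher (9.23%) and 953 lower (7.17%). The change differed between KO and wild type in 3069 genes by the interaction test (23.1%), 1564 with a higher (11.8%) and 1505 with a lower (11.3%) log2 change in KO cells. Of the genes called in the wild type 2927 were among them, and 1848 were called in the same direction in both genotypes. With the nested block 6553 interactions and 5851 KO changes were called, and the fit of the KO groups alone called 1363. Over library totals 4999 interactions were higher and 808 lower in KO cells, and 879 genes rose and 1157 fell there.

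The log2 changes of Tnf, Il6, Il12b, Cxcl10, Ccl5 and Nos2 were smaller in KO cells. Tnf was at 1543, 941 and 1375 CPM with fibronectin and 25.8, 14.3 and 29.4 CPM untreated, a KO change of 5.80 ± 0.52 and an interaction of -2.36 ± 0.61, adjusted p = 0.0081. Il6 was at 2.98, 1.02 and 2.88 CPM and 0.675, 0.587 and 0.943 CPM. It was not called in KO cells (1.63 ± 0.65, adjusted p = 0.0992), except by DESeq2 (1.65, adjusted p = 0.0286), and its interaction was -8.83 ± 0.98, adjusted p = 4.5e-06. Il12b differed by -6.33 ± 0.88, Cxcl10 by -6.64 ± 0.80, Ccl5 by -4.76 ± 0.81 and Nos2 by -4.98 ± 0.95, each called. Ifnb1 was at 0.837, 0.448 and 0.300 CPM in KO libraries with fibronectin, against 199, 153 and 166 CPM in wild-type ones. For Cxcl1 the interaction was not called (-2.09 ± 1.07, adjusted p = 0.19), with 52.1, 23.8 and 70.1 CPM against 0.434, 0.293 and 0.610 CPM in KO cells. Fn1 was at 1527, 423 and 385 CPM and 1021, 223 and 223 CPM, and its interaction was called with the nested block alone (-0.71, adjusted p = 0.0043; without the block -0.77 ± 1.11, adjusted p = 0.758).

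A smaller group changed in opposite directions. In 82 genes the changes of both genotypes were called with opposite sign and the interaction was called. Irf8, which rose in the wild type, was at 181, 179 and 207 CPM with fibronectin and 342, 326 and 339 CPM untreated in KO cells, lower with no overlap (-0.83 ± 0.15, adjusted p = 5.0e-04; interaction -3.52 ± 0.21, adjusted p = 2.1e-08). Hk2 rose in the wild type and fell in KO cells (-1.05 ± 0.24, adjusted p = 0.0048; interaction -4.05 ± 0.35, adjusted p = 5.9e-07), as did Trim25, a ubiquitin ligase of RNA sensing (-1.41 ± 0.25, adjusted p = 5.6e-04; interaction -3.91 ± 0.36, adjusted p = 8.8e-07). Osgin1, an oxidative stress response gene, fell in the wild type (1.25, 1.09 and 0.539 CPM against 5.72, 7.57 and 7.65 CPM) and rose in KO cells (1.26 ± 0.31, adjusted p = 0.0082; interaction 4.11 ± 0.46, adjusted p = 4.8e-06). Ppargc1b and Rgs1 had interactions of -5.37 ± 0.65 and -3.61 ± 0.55, both called. Their KO falls were less firm: that of Ppargc1b was lost in the fit of these groups alone (adjusted p = 0.0708), without KO fibronectin replicate 3 (0.0670) or without KO untreated replicate 1 (0.0564), and that of Rgs1 in the fit of these groups alone (0.127), without KO fibronectin replicate 1 (0.0509) or 2 (0.0886) or without KO untreated replicate 3 (0.165). Cx3cr1, which fell in the wild type, was at 1103, 1081 and 981 CPM and 1195, 973 and 968 CPM in KO cells (KO change 0.01 ± 0.21; interaction 2.51 ± 0.30, adjusted p = 7.6e-06).

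**Figure D5:**
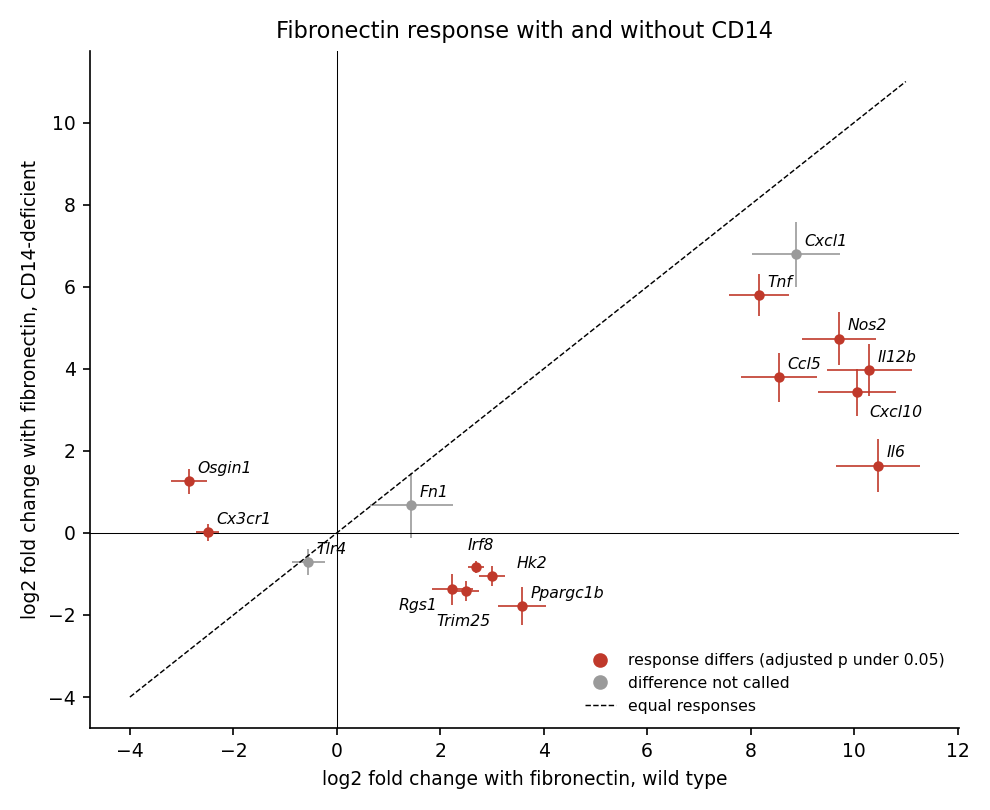
Log2 fold change with fibronectin in wild-type cells (horizontal) and in KO cells (vertical) for 16 genes named by rule; bars are standard errors, the dashed line marks equal changes, and red points were called in the interaction test. Ifnb1 and Il10 (3 or fewer wild-type untreated counts) and the deleted gene Cd14 are left out. Tnf, Il6, Il12b, Cxcl10, Ccl5 and Nos2 lie below the dashed line, Irf8, Hk2, Trim25, Rgs1 and Ppargc1b below 0 on the vertical axis, and Osgin1 above 0.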

How the data were processed

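RNA was sequenced from 24 cultures of primary mouse microglia. Per the submitters' processing notes, the authors used HTSeq 0.5.4, Bowtie2 2.1.0 and DESeq with the mouse build mm10, beside SAMtools 0.1.19, CASAVA 1.8.2 and FastQC 0.10.0. The annotation and the strand setting are not given in the sources used here. The deposited values were whole read counts per gene (18919 genes) and a table of normalized signal for 12889 genes, which the authors made by dividing the counts by 1 factor per library (checked within 0.0257). Reads of overlapping antisense genes therefore cannot be told apart.

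From the counts, edgeR 4.0.16 in R 4.3.3 fitted all 24 libraries as 8 groups of 3, without a replicate block, with TMM scaling, filterByExpr (minimum count 10, minimum total 15), a robust quasi-likelihood fit with 16 residual degrees of freedom, and Benjamini-Hochberg adjustment at 0.05. Replicate numbers come from the titles. Over 8320 genes, deviations from the group means correlated at 0.932, 0.786 and 0.797 between same-numbered fibronectin and untreated libraries. Between others they correlated at -0.771 to 0.386. The numbers were therefore taken as pairs in an alternative fit, with a block nested in genotype (12 residual degrees of freedom). The main fit, which gave the calls, standard errors and adjusted p-values unless another fit is named, does not use the pairing. Other alternatives were DESeq2 1.42.0, limma 3.58.1 on log2(normalized signal + 1), RLE scaling, library totals, no filter, a filter of 5 CPM in 3 libraries, only the groups compared, and leaving out each library. The fit without both replicate 1 libraries was chosen after seeing the data. Gene names are those of the files. Gene coordinates are from the GENCODE annotation of GRCm38, and promoter windows are from RefSeq (GRCm38.p6). Named genes were 14 fixed ones, the 12 largest rises and falls (at least 5 CPM in the higher group, no overlap and more than 3 counts in each group), the 8 largest gains and losses in CPM, up to 4 called members per direction and 2 uncalled members of each list, and the largest differences in the other comparisons. The gene lists and their members, unlike the libraries, were chosen with earlier results of these data known. Scripts were tested on simulated data. A few results on withheld genes are not reported here.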

Additional observations from a re-analysis of the deposited data

Results flagged for a closer look

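These results stand out because the fibronectin response differed between KO and wild-type cells by a test of the difference itself (interaction term, edgeR quasi-likelihood test with adjusted p under 0.05, 3 libraries a group). In all, 3069 genes passed it. As log2 fold change in KO minus wild-type cells, the difference was -8.83 for Il6, -6.64 for Cxcl10, -6.33 for Il12b, -4.98 for Nos2, -4.76 for Ccl5 and -2.36 for Tnf, so the log2 change of these genes was lower in KO cells. It was -5.37 for Ppargc1b, -4.05 for Hk2, -3.91 for Trim25, -3.61 for Rgs1 and -3.52 for Irf8, which rose in wild-type cells and were lower in KO cells. The KO falls of Ppargc1b and Rgs1 were less firm, as both were lost in the fit of the KO groups alone and in some fits that left out a KO library. The difference was 4.11 for Osgin1, which fell in wild-type and rose in KO cells, and 2.51 for Cx3cr1, which fell in wild-type cells and was not called in KO cells.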

How the results depend on the processing

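The count of 6670 genes called between fibronectin and untreated ran from 5927 to 6318 when 1 library was left out and was 5433 without both replicate 1 libraries, of which 5401 had the same call as with all libraries. Of the 6670 calls 6480 were also made by DESeq2, 6552 by limma and 6438 with RLE scaling, all in the same direction. Blocking the replicate pairs gave 9573 calls, ended or turned none of the 6670, and added 41 calls among the named genes. It moved the other comparisons to 7781 calls against LPS at 0.1 ng/ml (4365 without the block), 6553 for the difference between genotypes (3069) and 5851 within KO cells (2180), and apart from the genes for which a blocked value is given it changed no call stated in the text. Leaving out 1 library gave 3049 to 4158, 2615 to 2893 and 1558 to 1993 calls, and 0 against LPS at 10 ng/ml throughout. The fit of the KO groups alone gave 1363.

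Scaling by library totals turned directions. It gave 6860 calls against LPS at 0.1 ng/ml and 5807 between genotypes. Within the wild type it turned the log2 change of named genes that lay above 0 on the TMM scale. Among them were C1qb, Emr1, Nr1h2 and P2ry6, which were called higher on the TMM scale. Over library totals they were at: Asl -0.68, C1qa -0.39, C1qb -0.13, C1qc -0.45, Cd68 -0.52, Ctss -0.50, Emr1 -0.27, Grn -0.54, Igf1 -0.72, Irf3 -0.63, Maf -0.56, Nr1h2 -0.10, P2rx4 -0.54, P2ry6 -0.044, Pdia3 -0.66, Pycard -0.46 and S1pr2 -0.54. The change in composition between the groups and the scaling cannot be told apart. Small changes, and called rises as small as those of C1qb, Ly96 (0.78) and Itgb1 (0.81), therefore have no firm direction. Of the 6670 calls, 375 rises were called lower over library totals. Depth limits genes with a few counts in the untreated libraries, for which pooled ratios with counting intervals are given.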

Other observations

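Gene families outside the lists were also counted, picked by symbol after the values were seen. Schlafen genes, interferon-inducible regulators of growth and of viral translation, were higher in 6 of 8 tested, with a median log2 change of 4.76 and the same 6 to 0 split of calls over library totals. They took 0.530% of all counts with fibronectin and 0.0351% untreated. Slfn2 and Slfn8 changed by 4.56 ± 0.24 and 5.17 ± 0.27. Near-identical Schlafen copies such as Slfn8, Slfn9 and Slfn3 can share reads, so single members are uncertain.

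Genes for zinc finger proteins (symbols starting with Zfp) went the other way. Of 333 tested 193 were lower and 34 higher (median -0.93), and over library totals 270 and 14. Among all 13294 genes tested 26.5% were lower and 23.7% higher on the TMM scale, and 7389 genes were lower and 1490 higher over library totals. Zfp395 was at -5.72 ± 0.38, whereas Zfp811 rose by 5.02 ± 0.68. TRIM genes, a family of ubiquitin ligases, were split into 17 higher and 16 lower of 46, and 12 and 21 over library totals, with Trim21 at 4.16 ± 0.30 and Trim65 at -3.72 ± 0.27.

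Among 39 proteasome subunit genes 27 were higher and 0 lower (median 0.69), but 6 and 12 over library totals, where the median was -0.10. Over all genes tested the median was -0.78 with library totals. The immunoproteasome subunits Psmb8, Psmb9 and Psmb10 had changes of 2.12 ± 0.17, 2.39 ± 0.30 and 2.37 ± 0.18. Cathepsin genes, which encode lysosomal proteases, took 3.27% of all counts with fibronectin and 5.48% untreated, while 2 of 12 were called higher and 0 lower on the TMM scale, and 1 and 8 over library totals. Cytosolic ribosomal protein genes were called higher in 3 of 77 (0 lower), in 62 with the nested replicate block, and over library totals 0 were higher and 3 lower.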
